A study of Mus musculus with 7 samples.

Results

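The transcripts described here are those of 10 genes that mark hepatic stellate cells or encode the fibrous matrix of the liver. They are Des, Reln and Lrat, which mark quiescent stellate cells, and Col1a1, Col1a2, Col3a1, Acta2, Dcn, Lum and Pdgfra. The latter are collagens and genes of fibroblasts, some of which stellate cells also express. Members were taken by gene symbol from the platform annotation, using every probe set that carries one of these symbols and no other. This gave 22 probe sets for the 10 genes, out of 34945 probe sets and 18193 genes that the annotation names by a single symbol. Total RNA was extracted from each liver separately and hybridised to 1 Affymetrix array per animal. The groups were 4 glycerol kinase knockout mice and 3 wild type mice described as littermates of such knockouts, all male C57BL/6J pups on day of life 1. At this age, by the study design, knockout pups are without symptoms of their enzyme deficiency. The labels do not say how the allele was made. The targeted transcript is left out here, and the genotypes rest on the labels alone.

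Stellate cells lie between hepatocytes and sinusoidal endothelium. In their quiescent state they store vitamin A as retinyl esters, and after liver injury they can become contractile myofibroblasts that secrete fibrillar collagen. In newborn liver they share the tissue with portal fibroblasts, vascular smooth muscle, mesothelium and blood-forming cells, and several of these also express the members. In RNA from a whole liver, fewer cells of a type and less RNA per cell cannot be told apart.

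Among the 10 genes, 0 of the 13 probe sets bright enough to be tested were called different in knockout liver on day of life 1, where 4.24% of all tested probe sets were called. With so few probe sets, a count of 0 lies near that share and does not set the members apart. Within each group, however, single livers differed widely. Acta2 was high in 2 of the 4 knockout livers, and the 3 fibrillar collagens were high together in 1 knockout and 1 wild type liver. Stretches of DNA before the annotated starts of Acta2, Col1a2 and Col3a1 are shown because these genes carry those contrasts between livers. The sequences are from RefSeq (build GRCm38.p6), cover the 250 bases before the gene start, read 5′ to 3′ on the gene's strand, and lie at chr19:34255374-34255623 (minus strand) for Acta2, chr6:4505368-4505617 (plus strand) for Col1a2 and chr1:45311288-45311537 (plus strand) for Col3a1. Capitals mark matches to the CArG box, the element known to bind serum response factor, written as CC, 6 bases of A or T with at most 1 exception, and GG, and to CCAAT, known as a site of the factor NF-Y.
Acta2: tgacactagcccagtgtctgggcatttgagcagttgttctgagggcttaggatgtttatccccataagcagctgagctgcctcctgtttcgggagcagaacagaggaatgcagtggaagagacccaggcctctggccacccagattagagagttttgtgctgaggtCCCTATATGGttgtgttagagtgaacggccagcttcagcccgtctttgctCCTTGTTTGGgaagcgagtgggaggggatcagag
Col1a2: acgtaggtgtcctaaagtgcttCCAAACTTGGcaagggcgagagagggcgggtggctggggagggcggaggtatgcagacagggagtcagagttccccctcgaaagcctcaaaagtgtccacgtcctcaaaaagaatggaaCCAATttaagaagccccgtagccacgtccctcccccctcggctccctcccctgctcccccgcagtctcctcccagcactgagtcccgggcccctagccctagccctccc
Col3a1: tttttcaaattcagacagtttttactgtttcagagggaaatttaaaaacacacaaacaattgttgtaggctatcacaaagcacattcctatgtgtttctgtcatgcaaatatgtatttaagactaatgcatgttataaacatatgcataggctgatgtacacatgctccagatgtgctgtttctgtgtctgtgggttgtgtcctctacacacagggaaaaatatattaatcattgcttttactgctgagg
The Acta2 stretch held 2 CArG matches, which begin 84 and 34 bases before the annotated start. The Col1a2 stretch held 1, which begins 228 bases before the start, and a CCAAT match that begins 109 bases before it. Both motifs were searched on both strands. A CCAAT can lie inside a CArG match, but in Col1a2 they lie apart. Of 32851 RefSeq stretches of the same length, 8.59% held a CArG match so defined and 33.8% held CCAAT. No match was found in these letters for Col3a1. No such stretch was available for Col1a1, the other fibrillar collagen gene. Among genes searched but not shown, Lrat held 1 CArG match, and Des, Reln and Pdgfra held 0. The smooth muscle gene Cnn1, which was too dim to test but highest in knockout 2, also held 0. A match is a description of the sequence and says nothing of binding in these livers.

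Intensities in this section are on the linear scale deposited by the submitters, 1 value per probe set and array. Fold changes are differences of log2(intensity + 16), knockout over wild type, from a limma fit across 22518 probe sets, and the threshold for a call was an adjusted p (Benjamini-Hochberg) below 0.05. The 4.24% called over all tested probe sets were made up of 2.35% higher and 1.89% lower in knockout. Of the member probe sets 13 were tested, covering all 10 genes, and 9 lay below the filter on dim probe sets. Among the 13, 0 were called with limma, and 0 had an unadjusted p under 0.05, the smallest being 0.128. With the threshold at 0.10, which 9.02% of all tested probe sets passed, the members called were again 0. The groups did not overlap in 0 of the 13, against 21.1% of all tested probe sets. The 9 dim probe sets ran from 3.3 to 135.0 over the 7 arrays, where noise weighs most, and 0 of the 22 were called when all probe sets were tested.

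**Figure D1:**
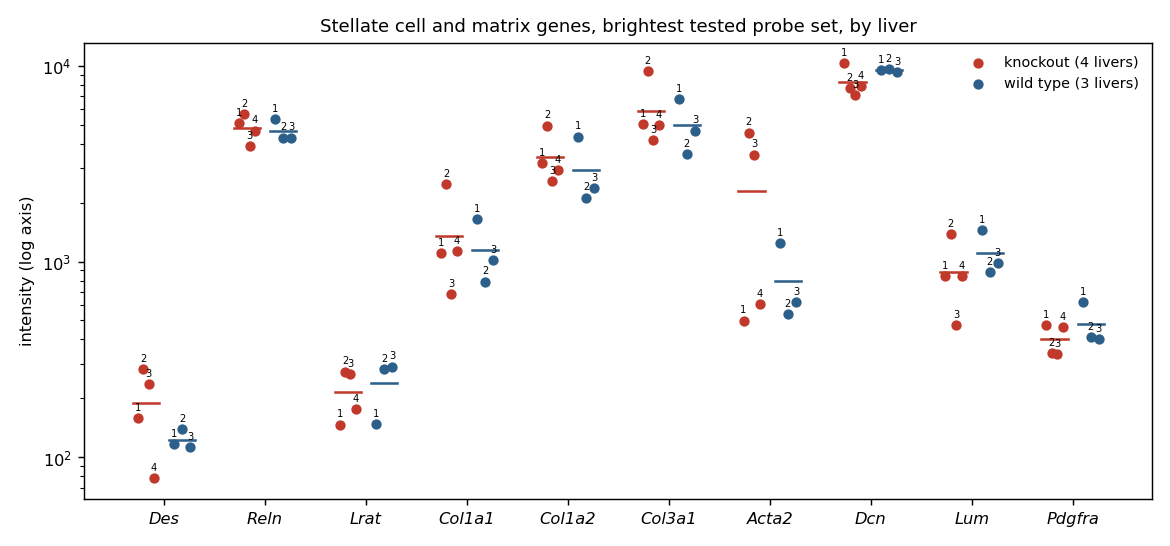
Intensity (log axis) of the brightest tested probe set of each member in every liver, with knockout livers (red) left of wild type livers (blue), the replicate number above each point and the arithmetic mean of each group as a bar. The 2 groups overlap for every gene, and Acta2 is high in knockout 2 and knockout 3 alone. Levels of different genes are measured by different probes and are not comparable with each other.

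Array medians ran from 92.7 to 108.3, and the share of dim signals, under 50, was 35.5% to 39.5%. They correlated with each other at r from 0.93 to 0.985 across tested probe sets, and 0 pairs held identical values. The actin control, whose ratio of 3′ to 5′ signal reflects RNA length, was at 1.45 in knockout 3, against 1.12 to 1.22 in the other knockout livers and 1.2 to 1.35 in wild type livers. Markers of the tissue were present. The summed level of 7 hepatocyte markers ran from 173861 to 223514 in knockout livers and from 177797 to 204619 in wild type livers.

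Among the quiescent markers, Reln encodes reelin, a secreted glycoprotein made in liver mainly by stellate cells. Its bright probe set 1449465_at read 5073.1, 5646.1, 3869.0 and 4661.2 in knockout 1 to 4, and 5321.4, 4285.5 and 4291.1 in wild type 1 to 3. The livers of both groups were interleaved, with knockout 2 the highest and knockout 3 the lowest of the 7. Reln averaged 4812 ± 747 in knockout and 4633 ± 596 in wild type (SD, n = 4 and 3). The log2 fold change was 0.05 ± 0.15 (SE, limma adjusted p = 0.885), with a 95% interval from -0.29 to 0.38, or 0.82-fold to 1.3-fold. The other Reln probe set stayed under 50 on all arrays.

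Lrat encodes lecithin retinol acyltransferase, which esterifies retinol for storage. Its tested probe set 1444487_at read 147.2, 274.5, 266.7 and 176.1 in knockout 1 to 4, against 148.5, 281.3 and 291.1 in wild type 1 to 3. Livers fell into a higher set of 4 (knockout 2 and 3, wild type 2 and 3) and a lower set of 3 (knockout 1 and 4, wild type 1), each holding both genotypes. Its log2 fold change was -0.13 ± 0.29 (limma adjusted p = 0.834), and its 95% interval ran from -0.77 to 0.51. The second probe set of Lrat, 1421345_at, was too dim to test and read 82.7, 84.1, 124.6 and 42.6 in knockout 1 to 4, and 48.6, 96.1 and 91.7 in wild type 1 to 3. It shared the low values of knockout 4 and wild type 1, but not that of knockout 1.

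Des encodes desmin, an intermediate filament protein of rodent stellate cells and of all muscle. Probe set 1426731_at read 158.5, 283.7, 237.0 and 78.4 in knockout 1 to 4, against 117.2, 139.6 and 112.5 in wild type 1 to 3. The wild type livers lay close together, whereas knockout 1, 2 and 3 were above all of them and knockout 4 below all of them. Des averaged 189 ± 90.2 in knockout and 123 ± 14.5 in wild type (SD, n = 4 and 3), a log2 fold change of 0.44 ± 0.35 (limma adjusted p = 0.507). Leaving out knockout 4 moved this value to 0.77 and leaving out knockout 2 moved it to 0.22, with 0 calls in either fit. The other Des probe set, 1426732_at, was too dim to test. It read 56.2, 38.8, 56.3 and 13.1 in knockout 1 to 4, and 37.5, 58.7 and 20.5 in wild type 1 to 3. There knockout 4 was again the lowest, but no knockout liver was above all wild type livers.

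The fibrillar collagens form the tensile fibres of connective tissue. Col1a1 and Col1a2 encode the chains of type I collagen and Col3a1 the chain of type III collagen. The bright probe set 1423669_at of Col1a1 read 1104.7, 2484.6, 679.3 and 1126.1 in knockout 1 to 4, against 1646.6, 789.1 and 1015.4 in wild type 1 to 3. Knockout 2 was the highest and knockout 3 the lowest of the 7, so the wild type range lay inside that of the knockout livers. The log2 fold change was 0.13 ± 0.38 (limma adjusted p = 0.877, 95% interval -0.72 to 0.99). It turned to -0.21 without knockout 2 and to -0.10 without wild type 2. The second probe set, 1455494_at, was at 0.30 ± 0.25.

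Col1a2, measured by 1450857_a_at, read 3184.1, 4931.8, 2560.5 and 2923.8 in knockout 1 to 4. In wild type 1 to 3 it read 4335.9, 2117.3 and 2363.8. All 4 knockout livers were above wild type 2 and 3, and wild type 1 was above 3 of the 4. Its log2 fold change was 0.24 ± 0.27 (limma adjusted p = 0.663, 95% interval -0.37 to 0.85), and that of 1423110_at was 0.22 ± 0.26. The remaining probe set of Col1a2 was under 50 on every array.

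Col3a1, measured by 1427883_a_at, read 5013.0, 9348.9, 4148.2 and 4961.8 in knockout 1 to 4, against 6737.5, 3534.0 and 4659.1 in wild type 1 to 3. Knockout 2 stood above the rest, and wild type 1 came second. The means were 5868 ± 2354 in knockout and 4977 ± 1625 in wild type (SD, n = 4 and 3). The log2 fold change was 0.21 ± 0.28 (limma adjusted p = 0.71), with a 95% interval from -0.41 to 0.84, and it was -0.03 without knockout 2 and -0.01 without wild type 2. The dimmer probe set 1427884_at was at 0.31 ± 0.37.

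The collagen probe sets ordered the livers in much the same way. Of the 6 tested, all 6 were highest in knockout 2, and all 6 had wild type 1 as the highest of the wild type livers. In 5 of the 6 wild type 1 ranked second of the 7, and in 5 of the 6 knockout 3 was the lowest knockout liver. The exception in each case was 1455494_at of Col1a1. Averaged over the brightest probe set of the 3 genes, log2 levels relative to the mean of all arrays were -0.02, 0.87, -0.45 and -0.06 in knockout 1 to 4, and 0.45, -0.55 and -0.24 in wild type 1 to 3. The spread within groups was wider than for most genes: the SD within groups of Col1a1 (1423669_at) was 0.68 on the log2 scale, above that of 97.5% of tested probe sets, whose median was 0.25.

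**Figure D2:**
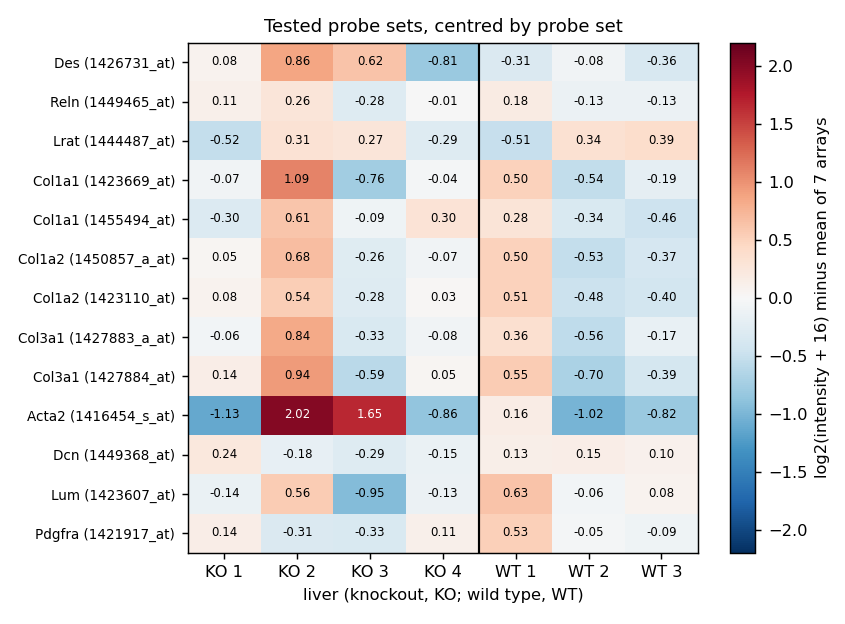
Log2(intensity + 16) of each tested member probe set, centred on its mean over the 7 arrays, in 4 knockout livers (KO, left) and 3 wild type livers (WT, right); red is above and blue below the mean. The collagen rows are red in KO 2 and WT 1, whereas the Acta2 row is darkest red in KO 2 and KO 3 (2.02 and 1.65).

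Acta2 encodes smooth muscle alpha actin, the actin of vascular smooth muscle and of activated stellate cells. Probe set 1416454_s_at read 498.8, 4547.7, 3514.9 and 606.0 in knockout 1 to 4, against 1238.0, 537.3 and 623.4 in wild type 1 to 3. Knockout 2 and 3 were above every wild type liver, while knockout 1 was below all of them and knockout 4 lay within their range. The means were 2292 ± 2053 in knockout and 800 ± 382 in wild type (SD, n = 4 and 3). The log2 fold change of 0.98 ± 0.72 had a 95% interval from -0.62 to 2.59 (limma adjusted p = 0.467). Its SD within groups, 1.33 on the log2 scale, was above that of 99.9% of tested probe sets. The fold change ranged from 0.45 to 1.5 when single livers were left out, with 0 calls. This probe set is of a type that can be shared between transcripts, so related actins may contribute to its signal, and the 2 other Acta2 probe sets were too dim to test, at 3.3 to 63.8.

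Acta2 did not order the livers as the collagens did. Knockout 3 was second highest for Acta2, but was the lowest of the 7 for Col1a1 (1423669_at), at 679.3, and for Lum. Knockout 3 also had the highest actin 3′ to 5′ ratio, whose part in these values was not tested. Other genes of smooth muscle contraction are set beside Acta2 below. Tagln, Actg2 and Myh11, and Tpm2 and Cnn1 in the plot, were picked once their values had been seen.

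Tagln, which encodes the actin-binding protein transgelin, read 184.7, 1548.3, 1362.0 and 309.7 in knockout 1 to 4, against 339.1, 157.5 and 246.4 in wild type 1 to 3. As for Acta2, knockout 2 and 3 stood above all other livers. Actg2, the smooth muscle gamma actin of visceral muscle, read 54.1, 1611.3, 229.7 and 91.7 in knockout 1 to 4 and 121.9, 68.3 and 63.4 in wild type 1 to 3. Myh11, the smooth muscle myosin heavy chain, read 61.3, 590.7, 101.1 and 38.4 in knockout 1 to 4 and 37.8, 58.1 and 49.2 in wild type 1 to 3. Actg2 and Myh11 were thus far higher in knockout 2 than in any other liver, including knockout 3. Tagln and Actg2 were tested and not called (limma adjusted p = 0.289 and 0.425), and Myh11 was below the filter.

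**Figure D3:**
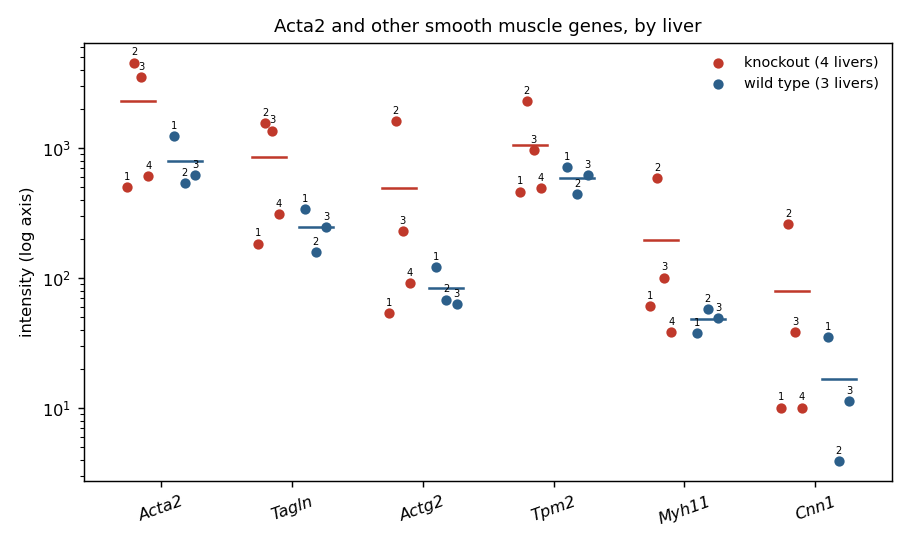
Intensity (log axis) of Acta2 and of 5 other smooth muscle genes in every liver, with knockout livers (red) left of wild type livers (blue), replicate numbers above the points and the arithmetic mean of each group as a bar. Knockout 2 is the highest liver for all 6 genes, knockout 3 is close to it for Acta2 and Tagln, and knockout 1 and 4 lie near the wild type livers.

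Over the list of 12 contractile genes of smooth muscle, which overlaps the functions of Acta2 but does not hold it, 8 were tested, 1 rose and 0 fell. All 8 were higher in knockout by their brightest probe set, with a median log2 fold change of 0.53, against 0.00 over all genes tested. Of all tested probe sets, 45.8% were higher. Other tested probe sets of these genes went either way, such as 1425028_a_at of Tpm2 at -0.17 ± 0.42 and 1424768_at of Cald1 at 0.69 ± 0.15. Without knockout 2 the median of the list was 0.05 over the 7 genes still tested. Actg2 then fell below the filter, so it was among the 8 through knockout 2 alone. The mean centred log2 level of the 12 genes was -0.52, 1.42, 0.39 and -0.25 in knockout 1 to 4, and -0.22, -0.47 and -0.36 in wild type 1 to 3. Knockout 2 and 3 were thus above the wild type livers, knockout 1 was the lowest of the 7 and knockout 4 lay within the wild type range. The summed intensity was 10780 to 19982 in knockout livers and 9858 to 10151 in wild type livers, of which Cald1 alone (1424769_s_at) made up 6914.5 to 9549.9 in knockout and 4668.9 to 5792.1 in wild type. The gene that rose was Cald1, which encodes caldesmon, a regulator of actomyosin found in muscle and other cells. Cald1 (1424770_at) read 2713.7, 3832.2, 3004.5 and 2827.8 in knockout 1 to 4, against 1253.1, 1591.8 and 1556.3 in wild type 1 to 3. Every knockout liver was above every wild type liver, unlike for Acta2. Its log2 fold change was 1.06 ± 0.16 (limma adjusted p = 0.00898), and it passed whichever liver was left out. Of its other tested probe sets 1424768_at rose by 0.69 ± 0.15 (limma adjusted p = 0.0315). The brightest, 1424769_s_at, was at 0.54 ± 0.14 (limma adjusted p = 0.0607) and 1433147_at at 0.08 ± 0.25, and neither was called.

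Skeletal muscle also expresses Des. Of 12 skeletal muscle markers, 6 stayed under 50 on every array by their brightest probe set, 2 were tested and 0 were called. Their summed level ran from 573 to 755 in knockout livers and from 724 to 890 in wild type livers. Their mean centred log2 level was 0.05, -0.17, -0.16 and -0.15 in knockout 1 to 4, and 0.06, 0.13 and 0.24 in wild type 1 to 3. The tested Des probe set was highest in knockout 2 and 3 (283.7 and 237.0). These livers were also highest for the smooth muscle list (1.42 and 0.39). Knockout 1, the lowest for that list (-0.52), was nevertheless above all wild type livers for Des (158.5). The dim Des probe set 1426732_at was not raised in knockout 2 (38.8, against 58.7 in wild type 2). The part of smooth or skeletal muscle RNA in the Des values was not tested. Mylpf, a myosin light chain of fast muscle, was at -0.11 ± 0.24 (1448371_at, limma adjusted p = 0.831). Portal fibroblast and mesothelial markers numbered 10, of which 6 were tested and 0 called, and their sum ran from 1661 to 2980 in knockout livers and from 1831 to 2487 in wild type livers. On average over these 10 markers, log2 levels relative to the mean of all arrays were highest in knockout 2 (0.43) and wild type 1 (0.29), the livers in which the collagens were high. The mesothelial gene Upk3b (1454881_s_at) read 167.0, 955.2, 403.1 and 407.2 in knockout 1 to 4 and 567.4, 459.4 and 450.2 in wild type 1 to 3. The part of these markers in the collagen values was not tested.

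Dcn and Lum encode decorin and lumican, small leucine-rich proteoglycans that bind collagen fibrils. Dcn (1449368_at) read 10254.1, 7675.7, 7095.4 and 7821.2 in knockout 1 to 4, against 9487.5, 9599.6 and 9291.3 in wild type 1 to 3. Knockout 2, 3 and 4 lay below all wild type livers, and knockout 1 lay above all of them. Its means of 8212 ± 1397 in knockout and 9459 ± 156 in wild type (SD, n = 4 and 3) gave a log2 fold change of -0.22 ± 0.13 (limma adjusted p = 0.367), the smallest p among the members. The 95% interval, from -0.51 to 0.07, was the narrowest of the 13. Without knockout 1 the value was -0.33.

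Lum (1423607_at) read 839.0, 1375.0, 472.5 and 842.1 in knockout 1 to 4, against 1443.3, 886.7 and 979.2 in wild type 1 to 3. As with the collagens, knockout 2 and wild type 1 were the highest livers and knockout 3 was low, but here wild type 1 was the highest of the 7. Lum had a log2 fold change of -0.38 ± 0.31 (limma adjusted p = 0.516), and it ranged from -0.62 to -0.12 with single livers left out. By 1449368_at, Dcn did not share the high value of knockout 2, where it was below every wild type liver. The other Dcn probe set, 1441506_at, was too dim to test. It read 67.8 in knockout 2, against 60.7, 88.7 and 53.5 in wild type 1 to 3.

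Pdgfra encodes the alpha receptor for platelet-derived growth factors, found on fibroblasts and stellate cells. Its brightest probe set 1421917_at read 472.5, 340.9, 335.7 and 462.3 in knockout 1 to 4, against 622.7, 411.8 and 400.2 in wild type 1 to 3. Knockout 2 and 3, the livers with high Acta2, had the lowest Pdgfra of the 7, and wild type 1 had the highest. Pdgfra had a log2 fold change of -0.23 ± 0.21 (limma adjusted p = 0.575), and without wild type 1 it was -0.03. The 2 other probe sets of Pdgfra, 1421916_at and 1438946_at, were below the filter. In both, wild type 1 was again the highest liver and knockout 3 was low (68.4 and 29.3). Knockout 2 was not among the low livers there (111.4 and 48.9). Among the ligands and the other receptor, 4 of 5 genes were tested and 0 were called. Pdgfrb, the beta receptor of stellate cells and pericytes, was at 0.13 ± 0.20 (1436970_a_at, limma adjusted p = 0.76).

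**Figure D4:**
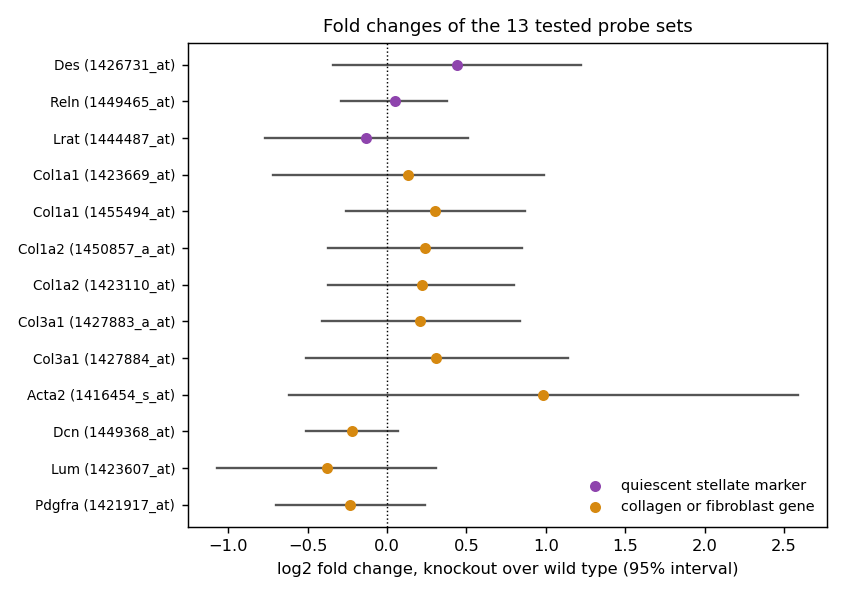
Log2 fold change of knockout over wild type for the 13 tested member probe sets, with 95% intervals from limma; purple points are quiescent markers and orange points collagen and fibroblast genes. Every interval includes 0, and that of Acta2 is the widest.

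Quiescent markers and collagen and fibroblast genes were set against each other as lists. With 1 probe set a gene, the brightest, the 3 quiescent markers had a median log2 fold change of 0.05, with 2 higher and 1 lower in knockout. The 7 collagen and fibroblast genes had a median of 0.13, with 4 higher and 3 lower, and both lists had 0 calls. The median over all tested genes was 0.00. In each liver, the mean centred log2 level of the quiescent markers minus that of the other 7 genes was 0.03, -0.19, 0.38 and -0.19 in knockout 1 to 4, and -0.61, 0.42 and 0.17 in wild type 1 to 3. Both genotypes had livers on either side of 0, and the group means of this balance differed by 0.01. Since stellate cells also express Pdgfra, this balance is not a measure of their activation. Wild type 1 had the lowest balance, with high collagens and low Lrat. A list of 10 genes chosen with earlier results known was given no p, and these intervals do not show that the genotypes are alike: for Acta2 they leave room for a 6.02-fold higher level in knockout.

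Genes around the members were taken from 17 further lists with 204 genes, of which 193 had a probe set named by them alone and 147 were tested. At the level of genes, 6.53% of all genes tested had at least 1 called probe set, 3.67% higher and 2.87% lower in knockout. Of 16 tested genes among other stellate cell genes, 7 were higher and 9 lower in knockout by their brightest probe set. Their median log2 fold change was -0.13. Of the 16, 1 rose and 0 fell. This was Cxcl12, a chemokine made by stromal cells, which attracts blood-forming cells. Cxcl12 (1417574_at) read 3375.2, 4123.3, 3686.9 and 3322.6 in knockout 1 to 4, against 1677.6, 1651.0 and 1439.0 in wild type 1 to 3. The groups were well apart, the log2 fold change was 1.18 ± 0.13 (limma adjusted p = 0.0025), and the call held whichever liver was left out. Its second tested probe set, 1448823_at, was at 0.40 ± 0.17 and was not called (limma adjusted p = 0.211). Gfap, an intermediate filament gene of astrocytes that stellate cells can also express, was named after its values were seen. Its probe set 1426509_s_at read 82.8, 83.3, 33.6 and 92.3 in knockout 1 to 4, against 142.2, 155.8 and 168.9 in wild type 1 to 3. All knockout livers were below all wild type livers, and groups likewise did not overlap in 21.1% of all tested probe sets. The log2 fold change of -1.01 ± 0.29 was not called (limma adjusted p = 0.0773). Mean levels were 73 in knockout and 155.6 in wild type, so this probe set passed the filter through the wild type livers. The brightest, 1426508_at, also without overlap, was at -1.28 ± 0.52 and not called (limma adjusted p = 0.189). In the dim 1440142_s_at the groups overlapped.

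**Figure D5:**
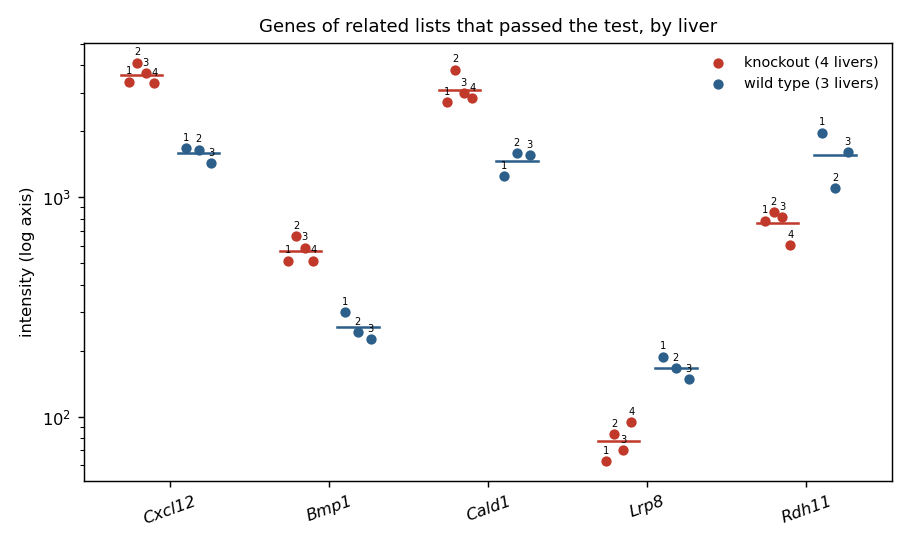
Intensity (log axis) of the 5 genes from stellate, matrix, contractile, reelin and retinoid lists that passed the test, in every liver, with knockout (red) left of wild type (blue), replicate numbers above the points and the arithmetic mean of each group as a bar. The groups do not overlap in the probe set shown for any of the 5 genes: Cxcl12, Bmp1 and Cald1 are higher and Lrp8 and Rdh11 lower in knockout. These 5 were shown because they were called, and groups did not overlap in 21.1% of all tested probe sets.

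Enzymes that process collagen were represented by 13 tested genes, of which 1 rose and 0 fell, with a median log2 fold change of 0.09. The gene that rose was Bmp1, a metalloproteinase that removes the carboxyl propeptides of fibrillar procollagens. Bmp1 (1427457_a_at) read 515.1, 665.9, 590.3 and 514.7 in knockout 1 to 4, against 299.7, 242.4 and 225.8 in wild type 1 to 3. The groups did not overlap, and the log2 fold change was 1.11 ± 0.17 (limma adjusted p = 0.00994). A second probe set of Bmp1, 1426238_at, rose by 0.64 ± 0.15 (limma adjusted p = 0.045). The first was not called without wild type 3 (limma adjusted p = 0.0673), the only one of the 7 livers whose omission ended the call.

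The lists of structural matrix genes, matrix turnover and TGF beta signalling held 0 calls. Of 14 tested genes among other collagens 0 were called, with a median of 0.05, and Col18a1, which encodes a basement membrane collagen, was at 0.03 ± 0.12 by its brightest probe set and 0.50 ± 0.16 by another (1426955_at, limma adjusted p = 0.112). Leucine-rich proteoglycans and fibril-binding genes had 13 tested and 0 called, with a median of 0.05. Fn1, the gene of fibronectin, was at 0.09 ± 0.10. In both lists the mean centred log2 level was highest in knockout 2, at 0.43 for other collagens and 0.35 for the proteoglycan list. Matrix-degrading enzymes and their inhibitors had 10 tested and 0 called, and Mmp14, a membrane-bound collagenase, was at 0.31 ± 0.14 (limma adjusted p = 0.238). Genes of TGF beta signalling, the pathway known to drive collagen expression in stellate cells, had 13 tested and 0 called. Tgfb1, a ligand of that pathway, was at -0.19 ± 0.23 (limma adjusted p = 0.681).

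Partners of Reln and Lrat gave 1 call in each of their lists. Reelin acts in brain through the lipoprotein receptors Vldlr and Lrp8 and the adaptor Dab1. Of these 3 genes 2 were tested, and Lrp8 fell. Lrp8 (1440882_at) read 62.6, 82.9, 70.0 and 94.6 in knockout 1 to 4, against 187.5, 166.6 and 147.7 in wild type 1 to 3, a log2 fold change of -0.98 ± 0.21 (limma adjusted p = 0.0322). All knockout livers were below all wild type livers, but the probe set was dim. The call held in only 1 of 7 fits that left out 1 liver, that without knockout 3 (highest adjusted p = 0.117). Mean levels were 77.53 in knockout and 167.3 in wild type, so the probe set passed the filter through the wild type livers. Its other probe sets were below the filter, and in both the groups overlapped. Their means were 38.62 in knockout against 57.57 in wild type (1421459_a_at) and 20.45 against 14.63 (1442347_at). Of 10 tested genes of retinoid storage and use, 8 were higher and 2 lower in knockout by their brightest probe set. Their median log2 fold change was 0.26. By the threshold 0 rose, and Rdh11, a retinol dehydrogenase also expressed in hepatocytes, fell. Rdh11 (1449209_a_at) read 784.3, 854.3, 811.7 and 606.5 in knockout 1 to 4, against 1976.0, 1102.5 and 1613.4 in wild type 1 to 3. Its log2 fold change was -0.99 ± 0.21 (limma adjusted p = 0.0326), and the call was lost without wild type 1, wild type 3, knockout 2 or knockout 4 (highest adjusted p = 0.145). The brighter probe set 1418760_at was at -1.23 ± 0.33 and was not called (limma adjusted p = 0.0654).

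Markers of other liver cells gave the setting of these values. Of 10 endothelial markers 10 were tested and 0 called, and the same held for 10 Kupffer cell markers. Their medians were -0.15, with 4 higher and 6 lower in knockout, and -0.07, with 3 higher and 7 lower. Lyve1 of sinusoidal endothelium was at -0.71 ± 0.25 (1429379_at, limma adjusted p = 0.134). Tek, an endothelial receptor for angiopoietins named here after its values were seen, was at 0.61 ± 0.17 (1418788_at, limma adjusted p = 0.0731), and Csf1r, the receptor of macrophage colony-stimulating factor, was at -0.01 ± 0.12 (1419872_at). Of the 3 tested cholangiocyte markers 0 were called, and Krt19, a keratin of bile duct cells, was at -0.50 ± 0.31 (1417156_at, limma adjusted p = 0.379). Among the 7 tested hepatocyte markers the asialoglycoprotein receptor gene Asgr1 rose by 0.54 ± 0.13 (limma adjusted p = 0.0444). Among the 7 tested red cell precursor markers 2 fell, Slc4a1, the anion exchanger of red cells, at -0.45 ± 0.08 and Rhag, a red cell membrane protein, at -0.49 ± 0.11 (limma adjusted p = 0.0192 and 0.0443). The summed level of the red cell markers was 54416 to 63339 in knockout livers and 67448 to 75052 in wild type livers, and its part in the member values was not tested. Asgr1 and Rhag kept their calls in 1 of 7 fits without 1 liver and Slc4a1 in 3 of 7.

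The genes whose level ran most like that of the members across the 7 livers were found among 11149 other genes, by the root mean square difference between profiles of log2 values, each centred on its own mean. Nearest to the mean profile of Col1a1, Col1a2 and Col3a1, which spanned 1.42 on the log2 scale, was Col6a3, a chain of type VI collagen, with a difference of 0.13. Cuedc1 and Niban2 followed at 0.15 each, Tgfb1i1 at 0.16 and St8sia3 at 0.17. Tgfb1i1 encodes a focal adhesion protein, also called Hic-5. Nearest to the mean profile of Des, Reln and Lrat, which spanned 0.85, were Dennd3 at 0.09, Flvcr2 and Nxn at 0.10 each, and Ppp1r13l and Saal1 at 0.11 each. None of these 10 genes was called in the fit of knockout against wild type, their adjusted p values running from 0.574 to 0.991.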

How the data were processed

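The values were deposited by the authors as linear intensities for each probe set on each array, and GCOS is the only software named, per the submitters' processing notes. The sources used here do not give the probe summarisation. With 2% trimmed at either end, the mean was 500 on each array, so a shift in total mRNA would not show. The number of arrays limits the precision.

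The members and lists were chosen with earlier results of these data known. Intensities were used as log2(value + 16). After 64 control probe sets of 45101 were left out, those with a mean log2 level above the median were kept (22518) and fitted with limma 3.58.1 in R 4.3.3 (lmFit, eBayes with a trend, no covariates). The steps were tested on simulated data. No batch term entered the fit. Besides the members, the text names up to 3 called genes of smallest p in each list, or else the one of the brightest probe set, and the 5 genes nearest to each member profile. Outside this rule, Tagln, Actg2, Myh11, Tpm2, Cnn1, Gfap and Tek were named after their values had been seen. For 1 gene of the lists an older symbol was updated through RefSeq synonyms. Alternatives covered the offset, scaling, filter, variance model, threshold, probe set choice, a replicate block and each array left out. Those for list genes and the smooth muscle list were chosen after seeing the data. Plots were drawn with matplotlib 3.10.9.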

Additional observations from a re-analysis of the deposited data

Results flagged for a closer look

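In 6 of 41 groups of 4 knockout livers examined, 1 liver lay far from the others, by a rule on the gap to the nearest liver over the whole range that chance meets in about 1 of 20 groups. Knockout 2 was the liver in 5 of them. Its Col3a1 intensity (1427883_a_at) was 9348.9, against 4148.2 to 5013.0 in the other knockout livers. Its mean centred log2 level was 0.67 for the 7 collagen and fibroblast genes, 0.43 for other collagens, 0.35 for proteoglycans and fibril-binding genes, and 0.43 for portal fibroblast and mesothelial markers. These lists share livers and partly cell types, so the 5 are not separate observations. For skeletal muscle markers knockout 1 was above the other knockout livers at 0.05, but wild type livers were at 0.06 to 0.24.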

How the results depend on the processing

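The count of 0 called members was the same under all 18 alternatives run for it, whereas the count over all probe sets, 955, was 2032 at an adjusted p under 0.10, 473 without the filter, 584 with eBayes without a trend, 2413 with array weights, 352 with the replicate block, and 127 to 1006 with single arrays left out. Of 220 fold changes of members recomputed, 210 kept their sign, and 10 turned, each with 1 array left out. The ranges over arrays left out were -0.21 to 0.42 for Col1a1 (1423669_at), -0.03 to 0.46 for Col3a1 (1427883_a_at), -0.42 to 0.03 for Lrat and -0.03 to 0.15 for Reln. The causes were not tested. The median of the quiescent markers ran from -0.03 to 0.15 and that of collagen and fibroblast genes from -0.16 to 0.42 over arrays left out, within the spread between livers. Of the other settings, the quiescent median was -0.04 at a mean intensity above 200, where Des was no longer tested and only Reln and Lrat remained. The collagen and fibroblast median was -0.04 with shared probe sets, Acta2 among them, left out and 0.36 with array weights. The smooth muscle median ran from 0.05 (without knockout 2) to 0.65. Asgr1, Slc4a1 and Rhag were not called with array medians made equal (adjusted p from 0.0623 to 0.119) or without the trend (0.0904 to 0.101), and these and Lrp8 and Rdh11 were not called without the filter (0.0553 to 0.0883). Under the replicate block, Cxcl12, Bmp1 (1427457_a_at) and Cald1 were still called (adjusted p = 0.0185, 0.0459 and 0.0243), whereas Lrp8, Rdh11, Asgr1, Slc4a1 and Rhag were not, with adjusted p from 0.0781 to 0.148. The numbers were not taken as pairs, because the labels do not say that a number marks a litter or batch. Deviations of same-numbered arrays from their group means correlated at r = 0.09, -0.06 and 0.06. With so few arrays these values cannot show whether the numbers mark pairs. Knockout 4 has no partner and was left out of the fit with the replicate block.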
